A study of Mus musculus with 12 samples.

Results

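Transglutaminases and genes of cornification were followed in the colon of mice with dextran sulfate sodium (DSS) colitis, with or without STING in myeloid cells. The 5 genes are Tgm1, Tgm2, Tgm3, Casp14 and Sprr1a, 5 of 54532 genes in the deposited table, and all 5 were among the 24102 genes that passed the filter on low values. They were taken by gene name, and were chosen by measured values of these data, since Tgm3 and Casp14 were far lower after DSS in Tmem173fl/fl mice and varied between colitic libraries. Their levels in colitic mice are therefore given as a description, and a test is given only for the DSS response of Tgm1, Tgm2 and Sprr1a in Tmem173iΔmye mice. The choice named no value of these 3 genes, but it was made with results of the same libraries known, so that these tests are not independent of it. RNA of the colon was sequenced from 12 mice, 3 in each of 4 groups, and 1 library was made per mouse. Tmem173fl/fl mice (WT in the sample labels) carry a floxed Tmem173 gene, which encodes STING, and no Cre. Tmem173iΔmye mice (CRE in the labels) carry in addition Lyz2-Cre ert2, a Cre recombinase that acts in myeloid cells once tamoxifen is given. By the study's methods both genotypes were C57BL/6N littermates of 6 to 8 weeks and both received 5 injections of tamoxifen, so the controls share the floxed allele and the drug. For each genotype there were untreated mice on plain water and colitic mice. Colitic mice were given DSS, which injures the colonic epithelium, in the drinking water for 7 days. By the study's methods 1 day of plain water followed. The replicates are numbered 1, 2 and 3, and those of the colitic Tmem173iΔmye group 1, 2 and 5.

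Transglutaminases join the side chains of glutamine and lysine and so cross-link proteins. In the outer epidermis Tgm1 and Tgm3 cross-link loricrin, involucrin and the small proline-rich (SPRR) proteins, Sprr1a among them, into the cornified envelope, while Casp14, a caspase of the epidermis that takes no known part in apoptosis, helps to break down filaggrin. Tgm2, the tissue transglutaminase, is made by endothelial, stromal and immune cells, cross-links fibronectin and other matrix proteins and is the autoantigen of coeliac disease. The colon is lined by a single columnar layer that does not cornify.

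Library totals ran from 13823237 to 18718915 counts. Tmem173 was at 20.6 ± 5.46 CPM (counts on a common library size, scaled by TMM; mean ± SD, n = 3) in untreated Tmem173fl/fl mice and 17.7 ± 3.40 CPM in untreated Tmem173iΔmye mice, and at 41.4 ± 3.30 and 34.2 ± 12.3 CPM in the colitic groups, and the difference between colitic genotypes was not called (log2 fold change -0.28, SE 0.26, edgeR adjusted p = 0.602). Cells other than myeloid cells also transcribe this gene, so these levels do not check the deletion. The 15 markers of surface colonocytes summed to between 7076 and 21470 CPM, so the labelled tissue was seen in every library. Among markers of cornified squamous epithelium, Flg (filaggrin) was at 0 counts in all 12 libraries. Ivl (involucrin) reached 5 counts in 1 library and at most 1 count in the others. Lor (loricrin) had at most 10 counts and Krt5, the keratin of basal keratinocytes, at most 11 counts. Other squamous markers were detected, and of 20 on the list 7 to 10 per group exceeded 3 counts in every library of the group. Krt14 and Krt13 reached 57 and 49 counts in replicate 5 of the colitic Tmem173iΔmye group. In 3 libraries, replicate 3 of each untreated group and replicate 5 of the colitic Tmem173iΔmye group, Xist was at 1225 to 1839 CPM and the Y-linked Ddx3y at 0, whereas in the other 9 libraries Xist was at most 0.545 CPM. No colitic Tmem173fl/fl library was among these 3, and values without them are given where they move a value of the 5 genes by more than 1 SE or change a call of theirs.

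The 250 bases before the RefSeq start of transcription are shown for the 2 genes that were low together, Tgm3 and Casp14, and for Sprr1a, which was not low with them (RefSeq, GRCm38.p6; 4 of the 5 genes had an entry). Capitals mark matches to motifs searched on both strands, and no match overlapped another.
Tgm3, chr2:130012090-130012339, plus strand: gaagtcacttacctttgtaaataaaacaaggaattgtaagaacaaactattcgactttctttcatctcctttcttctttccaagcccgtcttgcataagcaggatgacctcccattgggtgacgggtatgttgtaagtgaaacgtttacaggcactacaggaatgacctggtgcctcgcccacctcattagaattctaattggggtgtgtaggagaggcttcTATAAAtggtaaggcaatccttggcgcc
Casp14, chr10:78718294-78718543, minus strand: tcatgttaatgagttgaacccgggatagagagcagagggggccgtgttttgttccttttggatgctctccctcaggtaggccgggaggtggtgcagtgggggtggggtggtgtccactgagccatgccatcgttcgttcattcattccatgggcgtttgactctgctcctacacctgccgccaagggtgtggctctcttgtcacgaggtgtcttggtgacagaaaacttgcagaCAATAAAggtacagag
Sprr1a, chr3:92485882-92486131, minus strand: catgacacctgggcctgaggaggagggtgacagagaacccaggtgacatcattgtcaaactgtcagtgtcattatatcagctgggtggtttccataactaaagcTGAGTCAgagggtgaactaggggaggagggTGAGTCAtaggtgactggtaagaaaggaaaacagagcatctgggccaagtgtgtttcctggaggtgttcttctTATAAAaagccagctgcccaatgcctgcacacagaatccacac

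The window of Tgm3 held the letters TATAAA, known as a core promoter box, from base -28 and that of Sprr1a from base -43, counted from the start, while the window of Casp14 held none. TATAAA was found in 12.4% of 32851 RefSeq windows of this length. Sprr1a also held TGAGTCA at -146 and -116, matches to the AP-1 motif TGANTCA, which 6.75% of windows held. The window of Casp14 held CAATAAA, a HOX motif, at -16, as did 4.20% of windows. The window of the first of the 2 RefSeq starts of Tgm1 held the STAT motif TTCNNNGAA at -173 and -64 (7.02% of windows) and, on the minus strand, the CDX motif TTTATG at -31 (10.8% of windows). The NF-kB motif (1.41% of windows) and the HNF4 motif CAAAGTCCA (0.384% of windows) were in none of these windows. A match describes letters and is not evidence of binding.

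Tgm3 (ENSMUSG00000027401, GRCm38 chromosome 2, 130012349 to 130050399, plus strand, 13 exons) encodes the epidermal transglutaminase. In untreated Tmem173fl/fl mice its level was 2070, 828 and 1355 CPM, and in untreated Tmem173iΔmye mice 560, 884 and 904 CPM. In colitic Tmem173fl/fl mice it was 10.02, 0.521 and 2.93 CPM, and in colitic Tmem173iΔmye mice 442, 111 and 1173 CPM. Every colitic Tmem173fl/fl library lay below every other library, by at least 11.1 times, and the colitic Tmem173iΔmye libraries spread over 10.5 times, with replicate 5 above all untreated libraries of its genotype. The mean was 316-fold lower in colitic than in untreated Tmem173fl/fl mice (log2 fold change -8.24, SE 0.93), and was 1.36-fold lower in colitic than in untreated Tmem173iΔmye mice (log2 fold change -0.45, SE 0.61), a value that was -1.46 without replicate 5 of the colitic group, -1.34 without the Xist-high libraries, -1.66 with the replicate number as a block and 0.05 without colitic replicate 2. The value in Tmem173fl/fl mice was -9.69 without their colitic replicate 1.

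Casp14 (ENSMUSG00000005355, chromosome 10, 78711991 to 78718294, minus strand, 7 exons) was lowest in the same group. On FPKM, the deposited scale per gene length, its mean in untreated Tmem173fl/fl mice was 13.9, against 334 for Tgm3. It was at 40.8, 12.7 and 49.0 CPM in untreated Tmem173fl/fl mice and at 11.8, 7.49 and 34.9 CPM in untreated Tmem173iΔmye mice. Colitic Tmem173fl/fl libraries held 8, 0 and 2 counts of Casp14, or 0.433, 0 and 0.136 CPM, and the library at 0 allows up to 0.142 CPM (3 counts). Colitic Tmem173iΔmye libraries were at 9.05, 1.99 and 64.2 CPM. The groups did not overlap between untreated and colitic Tmem173fl/fl mice, and replicate 5 of the colitic Tmem173iΔmye group held the highest Casp14 level of all 12 libraries. The mean was 180-fold lower in colitic than in untreated Tmem173fl/fl mice (log2 fold change -7.41, SE 0.76), and was 1.39-fold higher in colitic than in untreated Tmem173iΔmye mice (log2 fold change 0.47, SE 0.94), a value that turned to -1.68 without replicate 5 of the colitic group, to -0.77 without the Xist-high libraries and to -1.08 with the replicate number as a block, and it was 1.38 without untreated replicate 3. The 180-fold change in Tmem173fl/fl mice rests on the 8, 0 and 2 colitic counts, so its size is approximate. Its log2 value was -9.0 without their colitic replicate 1, -6.75 without their colitic replicate 2 and -6.2 with limma on log2(FPKM + 0.1).

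Tgm2 (ENSMUSG00000037820, chromosome 2, 158116402 to 158146436, minus strand, 13 exons) was higher in colitic mice. Its level was 69.2, 60.3 and 58.8 CPM in untreated Tmem173fl/fl mice and 60.3, 62.2 and 76.7 CPM in untreated Tmem173iΔmye mice. In colitic Tmem173fl/fl mice it was 336, 335 and 338 CPM, so that the highest was only 1.01 times the lowest. In colitic Tmem173iΔmye mice it was 393, 180 and 106 CPM, a 3.72-fold range that held values both above and below those of the colitic Tmem173fl/fl mice. All colitic libraries lay above all untreated ones. Tgm2 overlaps Rprd1b on the other strand, which had at most 913 counts, and whether strand was used in counting was not stated.

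Tgm1 (ENSMUSG00000022218, chromosome 14, 55700009 to 55713926, minus strand, 15 exons), the keratinocyte transglutaminase, was close to the floor in untreated mice. It held 8, 3 and 14 counts in untreated Tmem173fl/fl libraries and 6, 3 and 12 counts in untreated Tmem173iΔmye libraries, or 0.1797 to 0.877 CPM. In colitic Tmem173fl/fl mice it was at 8.24, 11.7 and 9.33 CPM, and in colitic Tmem173iΔmye mice at 6.06, 3.30 and 1.34 CPM. The colitic Tmem173iΔmye libraries lay between all untreated and all colitic Tmem173fl/fl libraries.

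Sprr1a (ENSMUSG00000050359, chromosome 3, 92483952 to 92485895, minus strand, 2 exons), an SPRR protein that is cross-linked into the envelope, was at 11.7, 9.68 and 6.58 CPM in untreated Tmem173fl/fl mice and at 9.77, 16.5 and 9.62 CPM in untreated Tmem173iΔmye mice. In colitic Tmem173fl/fl mice it was at 21.3, 8.90 and 16.1 CPM, which overlapped the untreated range. In colitic Tmem173iΔmye mice it was at 96.5, 33.9 and 16.0 CPM, and replicate 1 stood 4.53 times above the highest library of the other groups. In the colitic Tmem173iΔmye group replicate 1 had the most Tgm1, Tgm2 and Sprr1a and replicate 5 the least, whereas Tgm3 and Casp14 were highest in replicate 5.

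**Figure D1:**
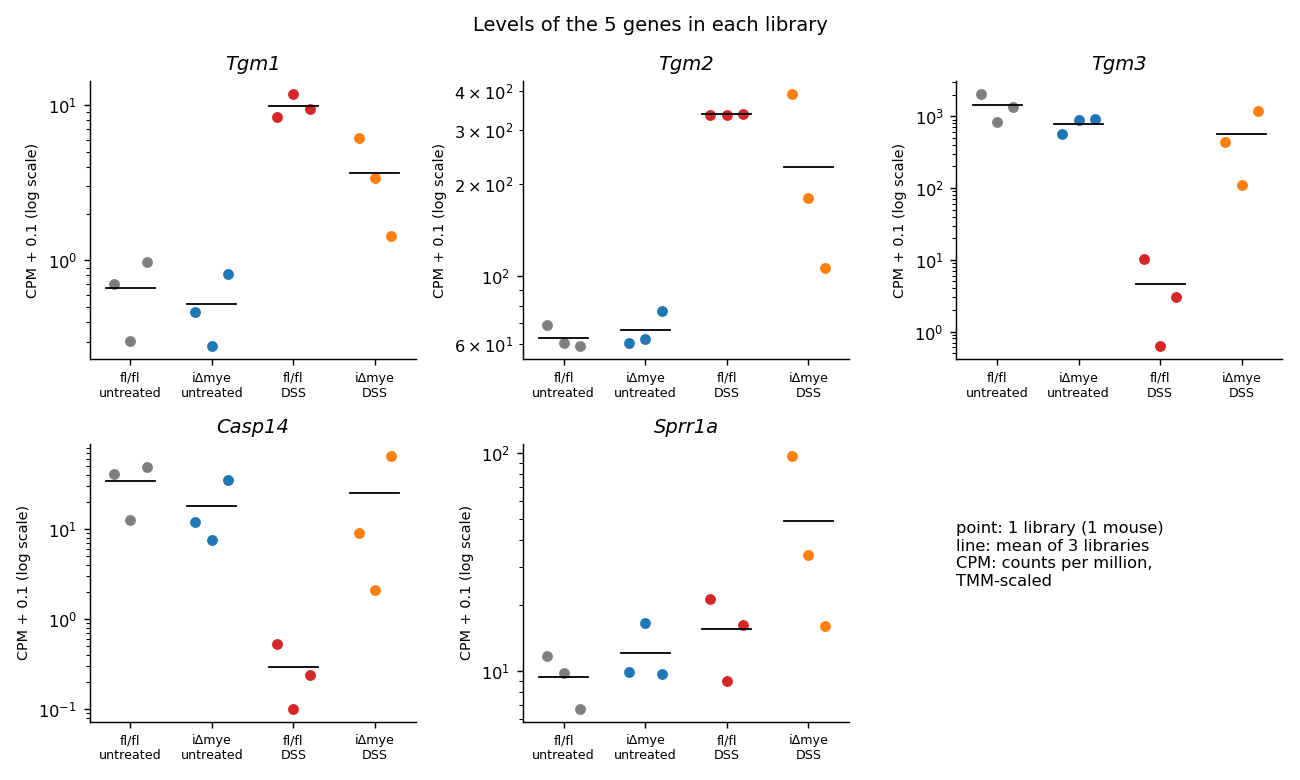
Levels of the 5 genes as CPM + 0.1 on a log axis, with 1 point per library and a line at the mean of the 3 libraries of a group. Tgm3 and Casp14 are lowest in colitic Tmem173fl/fl mice, where Casp14 was at 0 to 0.433 CPM, and Casp14 spreads 32.2-fold in colitic Tmem173iΔmye mice, while Tgm1 and Tgm2 are higher in every colitic than in every untreated library.

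On FPKM, the deposited scale per gene length, the 5 genes could be ordered within a group. In untreated Tmem173fl/fl mice Tgm3 came first at 334 ± 146 FPKM, Casp14 (13.9 ± 7.79), Tgm2 (13.3 ± 1.15) and Sprr1a (11.3 ± 3.05) followed with ranges that overlapped, and Tgm1 came last at 0.174 ± 0.105 FPKM. Untreated Tmem173iΔmye mice had Tgm3 first at 185 ± 46.1 FPKM and Tgm1 last at 0.131 ± 0.0860 FPKM, again with overlapping ranges of the other 3 genes. In colitic Tmem173fl/fl mice Tgm2 came first at 73.8 ± 0.696 FPKM, then Sprr1a at 19.4 ± 7.83, Tgm1 at 3.12 ± 0.564, Tgm3 at 1.10 ± 1.21 and Casp14 at 0.0802 ± 0.0935 FPKM, and only the ranges of Tgm3 and Casp14 overlapped among neighbours. In colitic Tmem173iΔmye mice Tgm3 had the highest mean at 137 ± 128 FPKM. Next came Sprr1a (60.1 ± 52.6), Tgm2 (48.7 ± 32.6), Casp14 (10.3 ± 13.9) and Tgm1 (1.12 ± 0.754), and the ranges of all neighbours overlapped. Tgm3 was first in replicate 5 only, at 277 FPKM. In replicate 1 Sprr1a (119.5 FPKM) was above Tgm3 (106.8 FPKM). In replicate 2 Sprr1a (41.5 FPKM) and Tgm2 (38.5 FPKM) were above Tgm3 (26.6 FPKM).

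The make-up of the transglutaminase family, taken as the share of each gene in the summed FPKM of Tgm1 to Tgm7 and F13a1 (the A chain of clotting factor XIII, which cross-links fibrin), differed with the group. Tgm3 made up 89.7% to 96.7% in the 6 untreated libraries and Tgm2 2.90% to 8.66%. In colitic Tmem173fl/fl libraries Tgm3 made up 0.139% to 2.63%, Tgm2 79.0% to 80.9%, F13a1 14.03% to 14.9% and Tgm1 2.82% to 4.11%. In the colitic Tmem173iΔmye libraries Tgm3 made up 52.8%, 36.6% and 91.1% in replicates 1, 2 and 5, so that replicate 5 lay within the untreated range and the others between the groups. The summed FPKM was 91.0 to 93.3 in colitic Tmem173fl/fl libraries, against 148 to 503 in untreated ones. It was 202, 72.6 and 304 in colitic Tmem173iΔmye replicates 1, 2 and 5, so that replicate 2 lay below the colitic Tmem173fl/fl libraries.

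**Figure D2:**
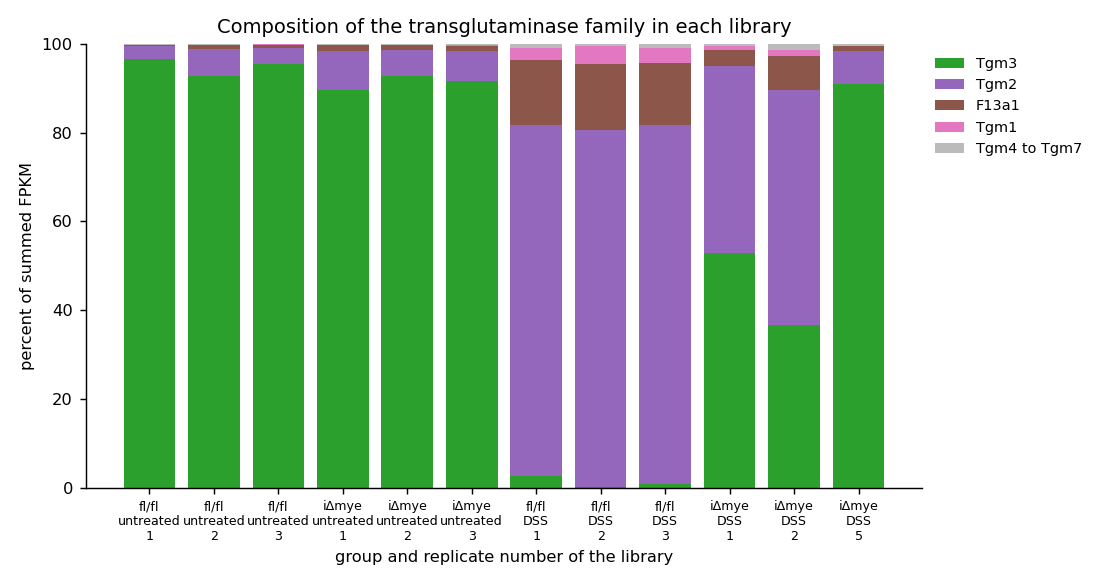
Share of each transglutaminase gene in the summed FPKM of the family, with 1 bar per library and the replicate number under it. Tgm3 fills 89.7% to 96.7% of the untreated bars, Tgm2 79.0% to 80.9% of the colitic Tmem173fl/fl bars, and the 3 colitic Tmem173iΔmye bars differ, at 52.8%, 36.6% and 91.1% Tgm3.

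The response to DSS with STING intact was the contrast that chose the genes, so no test is given for them. Tgm1 was 17.4-fold higher in colitic than in untreated Tmem173fl/fl mice (log2 fold change 4.16, SE 0.42, and 4.67 without the Xist-high library) and Tgm2 5.36-fold (2.49, SE 0.14), while Sprr1a was 1.66-fold higher with overlapping groups (0.80, SE 0.32). For 4 of the 5 genes the groups did not overlap, which held for 49.3% of all genes tested. Of all 24102 genes tested, 14.9% were called higher and 7.61% lower, where a call needs an adjusted p (Benjamini-Hochberg, edgeR) under 0.05 and a change of at least 1 in either direction on the log2 scale. Libraries hold the whole colon, so fewer cells of a type and less RNA per cell cannot be told apart.

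Whether DSS moved the genes after myeloid deletion of Tmem173 was tested for Tgm1, Tgm2 and Sprr1a. Tgm1 rose 8.45-fold (log2 fold change 3.05, SE 0.67, edgeR adjusted p = 0.0469). The call was kept in DESeq2 (adjusted p = 0.000400), in the fit of all 12 libraries (0.0107), with no filter (0.00265) and with the replicate block (0.000732). It was lost without colitic replicate 1 (2.44, adjusted p = 0.151), without colitic replicate 2 (3.12, 0.0882) and without untreated replicates 1, 2 or 3 (2.96, 2.69 and 3.70, adjusted p from 0.142 to 0.248), and with limma on log2(FPKM + 0.1) (2.25, 0.177). Tgm2 was 3.41-fold higher but missed the threshold (1.77, SE 0.40, edgeR adjusted p = 0.0533). It passed the threshold without colitic replicate 5 (2.14, 0.00142), in DESeq2 (1.78, 0.000381), in 1 fit of all 12 libraries (1.77, 0.00890) and with no filter (1.76, 0.000894). Tgm2 missed it without colitic replicate 1 (1.11, edgeR adjusted p = 0.0809) or 2 (1.92, 0.0792), and in limma (1.57, limma adjusted p = 0.25). Without any 1 untreated library it missed it too (edgeR adjusted p from 0.228 to 0.276). Sprr1a was 4.08-fold higher with overlapping groups and was not called (2.03, SE 0.54, adjusted p = 0.0974), and was called without colitic replicate 5 (2.48, 0.00297), in DESeq2 (2.04, 0.00170), in the fit of all 12 libraries (2.03, 0.0380) and with no filter (2.02, 0.00240). It was not called without colitic replicate 1 (1.06, edgeR adjusted p = 0.2555) or 2 (2.25, 0.117), or in limma (1.70, limma adjusted p = 0.3385). Without any 1 untreated library it was not called either (edgeR adjusted p from 0.245 to 0.377). Without the Xist-high libraries Tgm1 (4.10, adjusted p = 0.0170), Tgm2 (2.26, 0.0221) and Sprr1a (2.35, 0.0492) were all called. Of all genes tested, 1.48% were called higher and 0.597% lower. With 3 libraries against 3 an exact permutation test of 1 gene cannot go below a two-sided p of 0.1.

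Without DSS the genotypes were compared with the same untreated Tmem173fl/fl libraries that the choice of the genes used, so their values are a description as well. Tgm3 was 1.81-fold lower in Tmem173iΔmye mice (log2 fold change -0.85, SE 0.27, and -0.47 without Tmem173fl/fl replicate 1) and Casp14 1.89-fold lower (-0.91, SE 0.50), and for both the groups overlapped. The value of Casp14 was -1.45 without the Xist-high libraries and -1.81 without Tmem173iΔmye replicate 3, which is one of them. Tgm1 (-0.40, SE 0.72), Tgm2 (0.09, SE 0.16, and -0.07 without the Xist-high libraries) and Sprr1a (0.37, SE 0.27) overlapped as well. In the fits without 1 library Tgm1 ranged from -1.02 to 0.09 and Sprr1a from 0.07 to 0.56. Of all 24102 genes, 0% were called higher and 0% lower in edgeR, with 720 genes at an unadjusted p under 0.05 and 3 genes called by DESeq2.

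Between colitic mice of the 2 genotypes, which the choice of Tgm3 and Casp14 also used, Tgm3 was 128-fold (log2 fold change 7.00, SE 1.23) and Casp14 132-fold (7.02, SE 1.47) higher in Tmem173iΔmye mice, and for both the groups did not overlap, as for 26.8% of all genes. The fold of Casp14 rests on 8, 0 and 2 counts in the colitic Tmem173fl/fl libraries, so its size is approximate. Without replicate 5 of the Tmem173iΔmye group, its Xist-high library, the value of Casp14 was 4.83 and that of Tgm3 5.95. Without replicate 1 of the Tmem173fl/fl group the value of Casp14 was 8.61 and that of Tgm3 8.43. Tgm1 was 2.74-fold lower without overlap (-1.46, SE 0.49). Tgm2 was 1.49-fold lower (-0.57, SE 0.42) and Sprr1a 3.16-fold higher (1.66, SE 0.60), and both overlapped. Without Tmem173iΔmye replicate 1 these 3 values were -2.10, -1.26 and 0.67. Here 0.822% of all genes passed as higher and 1.99% as lower with the deletion. The difference of the DSS responses, Tmem173iΔmye minus Tmem173fl/fl, was 7.86 (SE 1.24) for Tgm3, 7.94 (SE 1.66) for Casp14, 1.30 (SE 0.73) for Sprr1a, -0.65 (SE 0.47) for Tgm2 and -1.04 (SE 0.86) for Tgm1 on the log2 scale, and 0.934% of genes had a called positive and 1.61% a called negative difference. Without the Xist-high libraries that of Casp14 was 6.28 and that of Tgm2 -0.18. The difference of Casp14 was 5.74 without colitic Tmem173iΔmye replicate 5, 5.78 in limma and 6.08 with the replicate block. That of Tgm3 was 6.57 with the block and 6.79 without that replicate 5. Without colitic Tmem173fl/fl replicate 1 it was 9.23 and that of Casp14 9.47, and without colitic Tmem173iΔmye replicate 1 those of Tgm2 and Sprr1a were -1.32 and 0.33.

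**Figure D3:**
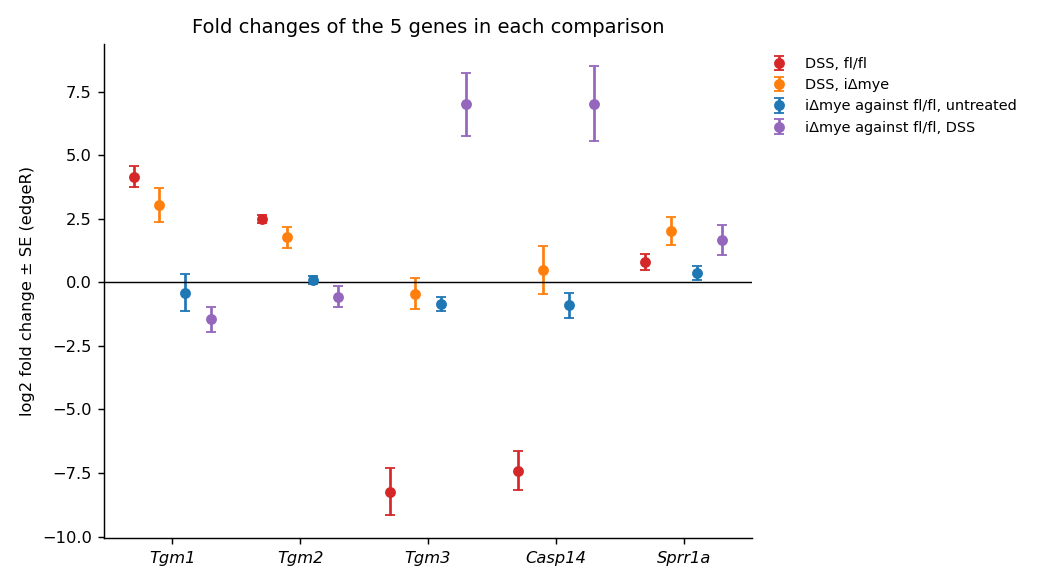
Log2 fold changes of the 5 genes with their standard errors (edgeR) in the DSS comparison of each genotype and in the comparison of genotypes without and with DSS. The bars of Tgm3 and Casp14 reach -8.24 and -7.41 with DSS in Tmem173fl/fl mice and lie at -0.45 and 0.47 with DSS in Tmem173iΔmye mice, values that were -1.46 and -1.68 without colitic replicate 5.

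Tgm3 and Casp14 were both lowest in colitic Tmem173fl/fl mice, which restates the choice of the genes. Within the untreated groups their orders differed. In untreated Tmem173fl/fl mice Tgm3 was highest in replicate 1 and Casp14 in replicate 3. In untreated Tmem173iΔmye mice Tgm3 was lowest in replicate 1 and Casp14 in replicate 2. The ratio of Tgm3 to Casp14 in FPKM was 10.6 to 68.4 in the 9 libraries outside the colitic Tmem173fl/fl group. The 8, 0 and 2 counts of Casp14 in that group are too few for a ratio per library. Among these 9 libraries, which share their groups, the ratio was lowest in the 3 Xist-high libraries, at 10.6 to 16.0. Each Xist-high library also held the highest Casp14 level of its group, at 49.0, 34.9 and 64.2 CPM. Hoxb13, a homeobox gene of the distal colon, had the same order of group means as Tgm3 and was at 252, 139 and 190 CPM in untreated Tmem173fl/fl mice, 112, 87.2 and 237 CPM in untreated Tmem173iΔmye mice, 4.93, 0.710 and 0.613 CPM in colitic Tmem173fl/fl mice and 28.7, 21.1 and 196 CPM in colitic Tmem173iΔmye mice. Hoxd13, of the same end of the gut, peaked at 183 CPM in the colitic Tmem173iΔmye replicate 5 and was at 1.77 to 88.0 CPM in the other libraries. Krt13 and Krt14, keratins of stratified epithelium, were highest in that library too, at 2.98 and 3.46 CPM against at most 1.38 and 2.42 CPM elsewhere, and were picked after their values were seen. Of the 19 squamous markers with any count 5 were highest in that library and 4 were at 0 there, among them Krt16 and Trp63, and Krt5 was at 0.182 CPM against 0.499 and 0.498 CPM in the other colitic Tmem173iΔmye libraries. The part of the position along the colon, of Xist status and of stratified epithelium in the levels of Tgm3 and Casp14 was not tested.

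**Figure D4:**
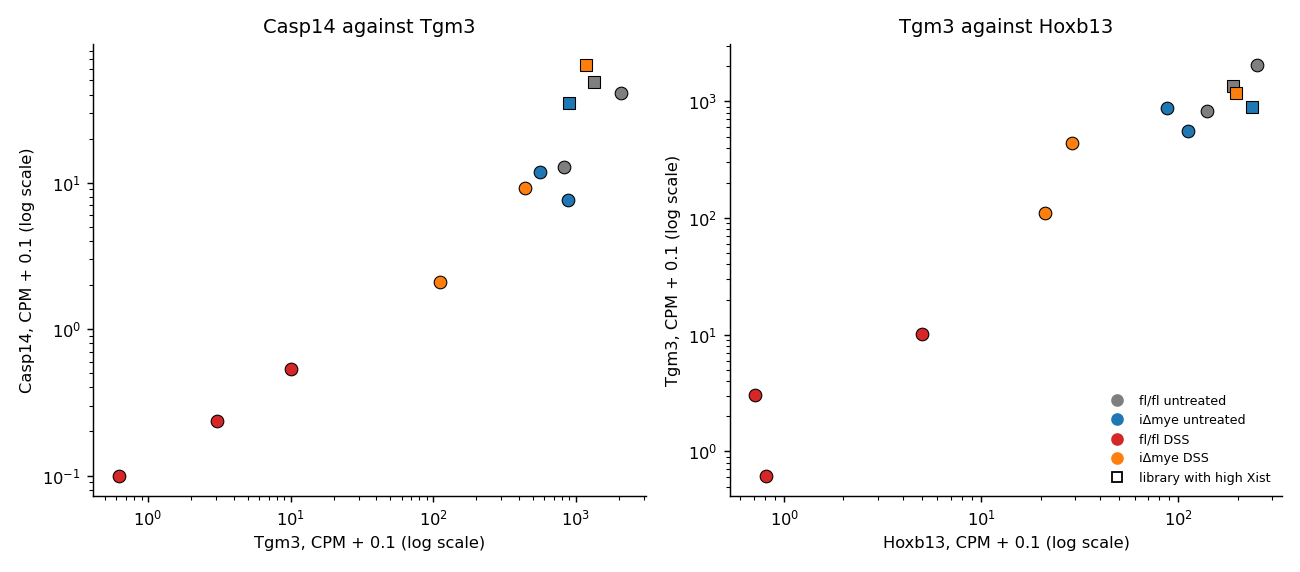
Casp14 against Tgm3 and Tgm3 against Hoxb13 in the 12 libraries, each as CPM + 0.1 on log axes, with colours for the groups and squares for the 3 libraries with high Xist. The colitic Tmem173fl/fl libraries lie at the lower left of both plots and the colitic Tmem173iΔmye library with high Xist lies at the upper right, with 1173 CPM of Tgm3, 64.2 CPM of Casp14 and 196 CPM of Hoxb13.

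Of 6 other transglutaminase genes, 4 were tested and F13a1 alone was called. It rose with DSS in Tmem173fl/fl mice, as did 14.9% of all genes, from 9.01, 12.2 and 15.3 to 91.5, 90.8 and 85.7 CPM (log2 fold change 2.94, SE 0.19, edgeR adjusted p = 4.13e-06). In Tmem173iΔmye mice F13a1 went from 13.7, 15.8 and 17.7 to 51.1, 37.8 and 20.7 CPM and was not called (1.21, SE 0.31, adjusted p = 0.0822). Its DSS responses differed between the genotypes (-1.66, SE 0.38, adjusted p = 0.0382), a call that was lost in 9 of the 12 fits without 1 library. Tgm4, Tgm5 and Tgm7 had group means of at most 1.86 CPM and were not called in any comparison. Tgm6 had 2 counts in 1 library and 0 in the others, and Epb42 at most 6 counts. The median log2 fold change of the 4 tested genes was 0.85 with DSS in Tmem173fl/fl mice and 1.24 in Tmem173iΔmye mice, against 0.03 and 0.02 over all genes.

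Of the other SPRR genes 7 were tested. With DSS in Tmem173fl/fl mice 2 rose and 2 fell (14.9% and 7.61% of all genes), while in Tmem173iΔmye mice 1 rose (1.48% of all genes). Sprr2a1 fell from 1339, 1054 and 1128 to 342, 144 and 258 CPM (log2 fold change -2.18, SE 0.28, edgeR adjusted p = 0.000248) and Sprr2a2 from 368, 264 and 425 to 117, 51.1 and 78.2 CPM (-2.04, SE 0.29, adjusted p = 0.000494). Sprr2a3 was at 633, 261 and 354 and then at 336, 93.3 and 150 CPM, which was not called (-1.04, SE 0.45, adjusted p = 0.0973). These 3 genes are near-identical copies, so the split of reads among them is uncertain. In colitic Tmem173iΔmye mice Sprr2a1 was at 1100, 661 and 1440 CPM and higher than in colitic Tmem173fl/fl mice (2.10, SE 0.39, adjusted p = 0.0317), as was Sprr2a2 (2.31, SE 0.30, adjusted p = 0.0137). The call of Sprr2a1 was lost in 5 of the 6 fits without 1 library, all but that without colitic Tmem173iΔmye replicate 1, and that of Sprr2a2 without colitic Tmem173iΔmye replicate 2 or Tmem173fl/fl replicate 3 (highest adjusted p 0.106 and 0.0625). Sprr2h had 1 count in each untreated Tmem173fl/fl library and 60, 13 and 9 counts after DSS (adjusted p = 0.00501), and 2, 0 and 1 counts against 38, 37 and 47 counts in Tmem173iΔmye mice (adjusted p = 0.00624, lost without untreated replicate 3). The fourth call, Sprr2i, had 0 counts in every untreated library and a mean of 0.364 CPM in colitic Tmem173fl/fl mice (adjusted p = 0.0180), and was lost without colitic replicate 1 or 2 and with the replicate block (highest adjusted p 0.0620). Of the 16 genes, 4 were at 0 in all libraries, Sprr1b and Sprr3 among them. The median over the 7 tested was -0.90 with DSS in Tmem173fl/fl mice and 0.12 in Tmem173iΔmye mice, against 0.03 and 0.02 over all genes.

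Many other precursors of the cornified envelope were not detected at this depth: 21 of 37, filaggrin among them, were at 0 in all libraries and 11 were tested. With DSS in Tmem173fl/fl mice 3 rose and 1 fell, where the shares of all genes were 14.9% and 7.61%. Evpl (envoplakin) fell from 127, 116 and 75.1 to 42.7, 26.4 and 30.8 CPM (log2 fold change -1.60, SE 0.23, edgeR adjusted p = 0.000440), while its partner in the desmosomal plaque Ppl (periplakin) rose from 8.11, 10.1 and 10.5 to 27.5, 15.7 and 28.1 CPM (1.38, SE 0.24, adjusted p = 0.00168). Cst6, an inhibitor of cysteine proteases, had 0, 1 and 5 counts before and 48, 56 and 37 counts after DSS (4.26, SE 0.65, adjusted p = 0.000722). The third that rose, Tchh (trichohyalin), was under the level set for naming a gene and was named after its values were seen (2.40, SE 0.49, adjusted p = 0.00358). In Tmem173iΔmye mice 2 others rose with DSS, against 1.48% of all genes, Csta1 (2.85, SE 0.51, adjusted p = 0.0204), a cystatin, and S100a11 (1.07, SE 0.21, adjusted p = 0.0289), and both calls were lost without any 1 of the 3 untreated libraries (highest adjusted p 0.152 and 0.207), that of S100a11 also without colitic replicate 5. The median was 0.69 with DSS in Tmem173fl/fl mice and 0.01 in Tmem173iΔmye mice, against 0.03 and 0.02 over all genes.

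Among genes that process filaggrin and shed the cornified layer, which is the pathway of Casp14, 3 of 11 tested others rose with DSS in Tmem173fl/fl mice, against 14.9% of all genes. Asprv1, a protease that cleaves filaggrin, rose from 0.682, 1.29 and 1.07 to 14.5, 9.37 and 9.81 CPM (log2 fold change 3.52, SE 0.32, edgeR adjusted p = 2.76e-05). It was at 1.57, 2.05 and 1.03 CPM in colitic Tmem173iΔmye mice, lower than in colitic Tmem173fl/fl mice (-2.86, SE 0.35, adjusted p = 0.0126), a call lost without Tmem173fl/fl replicate 1 (adjusted p = 0.0684). Padi4, a peptidylarginine deiminase best known from neutrophils, rose from 0.682, 0.609 and 0.251 to 6.56, 3.41 and 6.13 CPM (3.45, SE 0.44, adjusted p = 0.000228). Padi4 was lower in colitic Tmem173iΔmye mice (-1.84, SE 0.38, adjusted p = 0.0438), and this call was lost in each of the 6 fits without 1 library (highest adjusted p 0.201). It also rose with DSS in Tmem173iΔmye mice (2.48, SE 0.55, adjusted p = 0.0493), and was lost likewise in all 6 (highest adjusted p 0.218). Of the neutrophil markers, 10 of 10 also rose with DSS in Tmem173fl/fl mice (median log2 fold change 7.15), against 14.9% of all genes. In Tmem173iΔmye mice 5 of the 10 were called higher with DSS, against 1.48% of all genes. Without Ly6g, which was at 35.1 to 101 CPM in untreated libraries, the other markers summed to 5.89 to 11.02 CPM in untreated and 441 to 684 CPM in colitic Tmem173fl/fl libraries, and to 120, 114 and 23.5 CPM in colitic Tmem173iΔmye replicates 1, 2 and 5. Their part in the levels of Padi4 and Asprv1 was not tested. Klk8, a kallikrein protease, rose less (1.31, SE 0.38, adjusted p = 0.0218), and was lost without colitic replicate 1 or 2 or untreated replicate 2 or 3 (highest adjusted p 0.0988).

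Of 12 tested genes of the lipid barrier of the skin, 1 rose and 1 fell with DSS in Tmem173fl/fl mice (14.9% and 7.61% of all genes), the latter Pnpla1 (log2 fold change -1.24, SE 0.43, edgeR adjusted p = 0.0484), a lipase named after its values were seen, with a call lost in 5 of 6 fits without 1 library. Elovl4, which makes very long fatty acids, rose from 0.833, 0.542 and 0.438 to 1.95, 3.55 and 4.63 CPM (log2 fold change 2.55, SE 0.45, edgeR adjusted p = 0.00157). Over the 5 cornification lists together, 45 of 92 other genes were tested, of which 10 were called higher and 4 lower with DSS in Tmem173fl/fl mice and 4 higher in Tmem173iΔmye mice, with medians of 0.17 and 0.08. Over all genes these shares were 14.9%, 7.61% and 1.48%, and the medians 0.03 and 0.02.

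Of the 7 other caspases reported here, 1 fell and 1 rose with DSS in Tmem173fl/fl mice, against 7.61% and 14.9% of all genes. Casp1, of the inflammasome, fell from 168, 164 and 195 to 57.0, 50.5 and 66.5 CPM (log2 fold change -1.53, SE 0.15, edgeR adjusted p = 4.98e-05), a call that held in all 13 alternatives. In colitic Tmem173iΔmye mice Casp1 was at 91.9, 173 and 164 CPM, above all 3 colitic Tmem173fl/fl libraries (1.29, SE 0.25, adjusted p = 0.0344), and this call was lost in 5 of the 6 fits without 1 library, all but that without Tmem173iΔmye replicate 1 (highest adjusted p 0.160). Its DSS responses were not called different between the genotypes (1.29, SE 0.33, adjusted p = 0.0537). Casp12, a caspase of the endoplasmic reticulum, rose with DSS in Tmem173fl/fl mice (1.06, SE 0.23, adjusted p = 0.00541, under the fold threshold without colitic replicate 2 or untreated replicate 1) and in Tmem173iΔmye mice (1.34, SE 0.27, adjusted p = 0.0345, lost in 5 of 6 fits without 1 library, highest adjusted p 0.219).

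**Figure D5:**
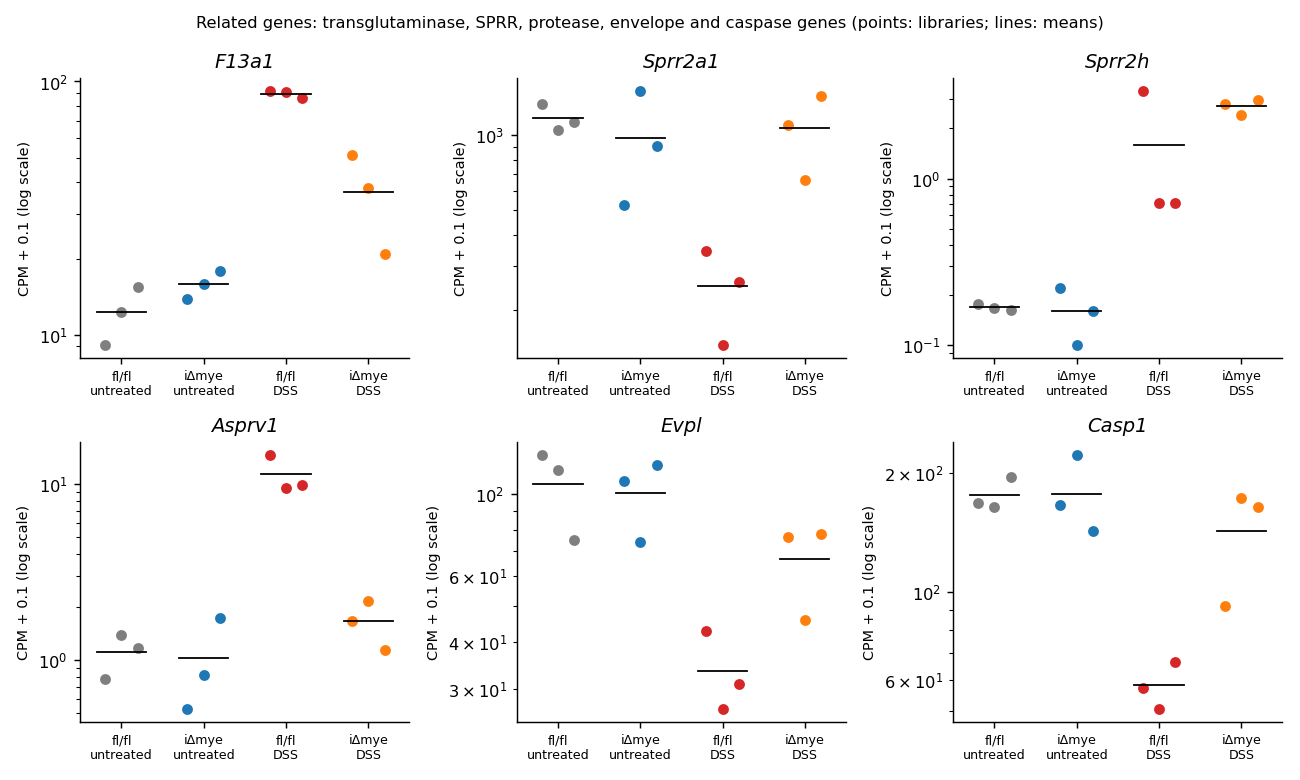
Levels of 6 related genes as CPM + 0.1 on log axes, with 1 point per library and a line at the mean of a group. F13a1 and Asprv1 are highest in colitic Tmem173fl/fl mice, at 85.7 to 91.5 and 9.37 to 14.5 CPM, whereas Sprr2a1, Evpl and Casp1 are lowest there, and Sprr2h is near 0 in untreated mice only.

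Markers of the cells that could carry these genes moved in the same comparisons. The 15 surface colonocyte markers summed to 16760 to 21470 CPM in untreated Tmem173fl/fl libraries, 7076 to 10060 CPM after DSS, and 17330 to 19330 CPM in colitic Tmem173iΔmye libraries. With DSS in Tmem173fl/fl mice, where 7.61% of all genes fell and 14.9% rose, 8 of these 15 fell, among them Slc26a3, the chloride-bicarbonate exchanger (log2 fold change -2.73, SE 0.25, edgeR adjusted p = 3.25e-05), and Aqp8, a water channel (-2.47, SE 0.26, adjusted p = 7.29e-05), and 3 rose. The median was -1.11, against a change of -8.24 for Tgm3. The 10 markers of epithelium in general summed to 12300 to 15500 CPM before and 4647 to 7913 CPM after DSS in Tmem173fl/fl mice, and 5 of the 10 fell. Of 20 squamous markers 13 were tested, and 4 rose and 3 fell with DSS in Tmem173fl/fl mice. Their sum, made mostly of Perp and Serpinb5, which other epithelia also transcribe, was 390 to 444 CPM before and 139 to 250 CPM after DSS, and 308 to 470 CPM in colitic Tmem173iΔmye mice. The part of the number of surface cells in the levels of Tgm3 and Casp14 was not tested.

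Matrix partners of Tgm2 were followed as well. Of 12 genes for fibronectin, integrins and other receptors (Sdc4, Lrp1), collagen III, osteopontin, Mfge8, transforming growth factor beta and a carrier of it, 10 rose in colitic Tmem173fl/fl mice and the median log2 fold change was 2.04, against 0.03 and a called share of 14.9% over all genes. In Tmem173iΔmye mice 1 of the 12 rose with DSS (1.48% of all genes) and the median was 0.82. Fn1, fibronectin, rose from a mean of 315 ± 16.1 to 1441 ± 211 CPM (2.26, SE 0.16, edgeR adjusted p = 6.84e-06), and Col3a1, a fibrillar collagen, from 525 ± 49.5 to 3742 ± 565 CPM (2.90, SE 0.18, adjusted p = 2.71e-06). In colitic Tmem173iΔmye mice 5 of the 12 were lower than in colitic Tmem173fl/fl mice (1.99% of all genes), with a median of -1.09. Markers of endothelium rose 8 of 8 and those of fibroblasts 6 of 8 with DSS in Tmem173fl/fl mice. Endothelial markers summed to 163 to 176 CPM before and 673 to 954 CPM after DSS in Tmem173fl/fl mice and to 498, 314 and 239 CPM in colitic Tmem173iΔmye replicates 1, 2 and 5, the order that Tgm2 also had among those 3 libraries. In the same replicates the matrix partners summed to 4380, 3325 and 3695 CPM and fibroblast markers to 2000, 1459 and 1843 CPM. Markers of monocytes and macrophages summed to 882, 699 and 707 CPM there. These 3 sums were lowest in replicate 2, whereas Tgm2 was lowest in replicate 5. The monocyte and macrophage sum includes Lyz2, the gene of the Cre allele, at 319, 231 and 357 CPM in replicates 1, 2 and 5. Its markers Lyz2, Cd14, Mertk and Mrc1 did not have the order of Tgm2. Csf1r (168, 103 and 50.1 CPM), Cd68, Adgre1, Fcgr1, Ccr2 and Ly6c2 had that order. The part of these cells in the level of Tgm2 was not tested.

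The genes with the most similar profile were sought among 14557 genes with a mean of at least 1 FPKM, by the root mean square (RMS) difference of log2(CPM + 0.5) over the 12 libraries after centring. For Tgm3 the nearest was Hoxb13 at 1.06, before Casp14 at 1.56 and Atp12a, the colonic proton-potassium pump, at 1.57, where the RMS size of the profile of Tgm3 itself was 3.58. For Casp14 they were Tnni1 (0.654), Trpv3 (0.693), a calcium channel best known from keratinocytes, and Atp12a (0.703), against 2.40. For Tgm1 they were Cd300lf (0.270), a receptor of myeloid cells, complement C3 (0.334) and Ggt5 (0.341), against 1.51. For Tgm2 they were Csf2rb2 (0.183), a cytokine receptor chain, Gpr146 (0.223) and Svep1 (0.245), against 1.11. For Sprr1a they were Trim15 (0.419), Duox2 (0.443), the dual oxidase of the gut epithelium, and Dhrs9 (0.489), against 0.983. With a pseudocount of 2 in place of 0.5, Casp14 was no longer among the 5 genes nearest to Tgm3, Atp12a among those of Casp14, or Cd300lf, C3 and Ggt5 among those of Tgm1. Likeness over 12 libraries in 4 groups is a description, and no function was inferred from it.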

How the data were processed

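Polyadenylated RNA of the colon of 12 mice was sequenced, with 1 library per mouse (TRIzol and lithium chloride, NEBNext Ultra kit). The authors deposited raw counts per gene and FPKM (per gene length and library), and the submitters' processing notes name CASAVA 1.8, fastp, HISAT2 2.0.5, featureCounts 1.5.0-p3, DESeq2 1.20.0 and GRCm38/mm10. Whether strand was used is not given in the sources used here, which bears on genes that overlap another strand. The deposited table also holds log2 fold changes and p-values of the authors' own comparisons and group means, which were not used.

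The titles of the samples gave group and replicate number. Counts were tested with edgeR 4.0.16 in R 4.3.3 (glmQLFit, glmQLFTest, TMM scaling) over 24102 of 54532 genes, those that reached an FPKM of 0.1 in 3 or more libraries. A fit held only the compared groups, except that of the interaction, which needs all 12 libraries. Calls required an adjusted p (Benjamini-Hochberg over all genes tested) under 0.05 and a log2 fold change of 1 or more in size. The SE is the log2 fold change divided by the square root of F. CPM are counts on TMM library sizes of the 12 libraries. A library with 3 or fewer counts was taken as at the floor, which ranged from 0.142 to 0.227 CPM. Limits of counts cover counting error only. Totals of 13823237 to 18718915 counts left the precision of abundant genes to the spread between mice, and that of genes with few counts to counting as well. The tests were tried on simulated counts.

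Named genes were the 5 members, the called genes of the fixed lists (up to 4 per list and direction with a mean of at least 0.5 FPKM in a compared group), the nearest profiles, Tmem173 and Lyz2. The members and lists were chosen with earlier results of these data known. Some genes of the caspase list are not reported here. Without DSS, Lyz2 had 193 ± 72.8 CPM (Tmem173fl/fl) and 95.2 ± 19.2 CPM (Tmem173iΔmye), and with DSS 439 ± 90.4 and 302 ± 64.3 CPM. In the same order of groups, markers of monocytes and macrophages summed to 387 to 584, 354 to 416, 986 to 1314 and 699 to 882 CPM, and those of smooth muscle to 2454 to 4075 CPM over all libraries. Of 16 genes of regenerating epithelium, 5 rose and 1 fell with DSS in Tmem173fl/fl mice (14.9% and 7.61% of all genes), and 5 rose in Tmem173iΔmye mice (1.48% of all genes). Alternatives were DESeq2 1.42.0, RLE scaling, no filter, a fit of all 12 libraries, a replicate block, limma 3.58.1 on log2(FPKM + 0.1) and each library left out. Leaving out the 3 Xist-high libraries was added after the data were seen. The p-values measure the spread between these mice.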

Additional observations from a re-analysis of the deposited data

Results flagged for a closer look

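For 5 genes related to the members the DSS response differed between the genotypes by the interaction test in edgeR, given as the response of Tmem173iΔmye minus that of Tmem173fl/fl mice on the log2 scale. They are of 45 tested genes of the cornification lists and 7 caspases, and over all genes 0.934% had a called positive and 1.61% a called negative difference. F13a1 had a difference of -1.66 (SE 0.38, adjusted p = 0.0382; 0.00232 to 0.0925 over the alternatives), with colitic means of 89.4 CPM (Tmem173fl/fl) and 36.5 CPM (Tmem173iΔmye), and it was lower in 3 of 3 libraries. Asprv1 had a difference of -2.71 (SE 0.64, adjusted p = 0.0396; 0.00101 to 0.204), at 11.2 and 1.55 CPM, and was lower in 3 of 3 libraries. Sprr2a1 had a difference of 2.37 (SE 0.54, adjusted p = 0.0357; 0.000844 to 0.209), at 248 and 1067 CPM, and Sprr2a2 of 2.17 (SE 0.49, adjusted p = 0.0333; 0.000979 to 0.214), at 82.1 and 409 CPM, both higher in 3 of 3 libraries. Casp8, an initiator caspase, had a difference of 1.10 (SE 0.22, adjusted p = 0.0191; 0.000326 to 0.0764), at 96.2 and 186 CPM, and was higher in 3 of 3 libraries. The colitic genotypes did not overlap for 26.8% of all genes either, and F13a1 and Casp8 were not called in that comparison. Without 1 library at a time the interaction call was lost in 9 of 12 fits for F13a1 and Asprv1. It was lost in 8 of 12 for Sprr2a1 and Sprr2a2 and in 6 of 12 for Casp8. Asprv1, Sprr2a1, Sprr2a2 and Casp8 were not called without the 3 Xist-high libraries, Asprv1, Sprr2a1 and Sprr2a2 were not called with the replicate block, and in limma none of the 5 genes was called. The cause was not tested.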

How the results depend on the processing

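Counts of called genes are given for all genes and, in brackets, for the 45 tested genes of the cornification lists. With DSS in Tmem173fl/fl mice the 5422 (14) calls stayed within 1.5 times under every alternative, from 4761 to 5568 (12 to 16) without 1 library, and the member values kept their sign. With DSS in Tmem173iΔmye mice 501 (4) became 1137 (7) in DESeq2, 981 in the fit of all 12 libraries, 41 (1) in limma, 1013 (7) with no filter, 1369 with the replicate block and 51 to 1469 (0 to 5) without 1 library. Between untreated genotypes 0 (0) became 3 in DESeq2, 3 in limma, 68 with no filter, 94 (1) with the replicate block and 0 to 6 without 1 library. Between colitic genotypes 678 (4) became 1619 (10) in DESeq2, 1492 (9) in the fit of all 12 libraries, 71 (1) in limma, 1257 (9) with no filter, 7 of the listed genes with the replicate block, and 27 to 1593 (1 to 5) without 1 library. For the interaction 614 (4) became 1364 (7) in DESeq2, 368 (1) in limma, 201 (1) without the Xist-high libraries, 1228 with no filter, 1 listed gene with the replicate block and 267 to 1728 (0 to 6) without 1 library. The cause of these shifts was not tested. Same-numbered libraries showed no strong shared deviation (correlations from -0.123 to 0.131 over 10 pairs). With deviations taken from means of 3 libraries, this cannot settle whether the numbers pair the mice. With the replicate block Tgm2 (log2 fold change 2.12, edgeR adjusted p = 0.000173) and Sprr1a (2.17, 0.00186) passed the threshold with DSS in Tmem173iΔmye mice. The block lost the DSS calls of Sprr2i and Pnpla1 in Tmem173fl/fl mice and of S100a11 and Padi4 in Tmem173iΔmye mice. Among all the alternatives for the 5 members and the called related genes 0 calls reversed direction. The set of 5 genes nearest to Tgm1 kept 1 gene with a pseudocount of 2. Depth limits Tgm1 in untreated mice, Casp14 in colitic Tmem173fl/fl mice and most envelope genes, which held few counts.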
